A study of Homo sapiens with 27 samples.

Results

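The libraries of experimental replicate 3 of the pancreatic neuroendocrine tumour line QGP-1 were compared with those of experimental replicate 1, whatever plasmid the cells carried. They were chosen by the replicate number in their titles: 3 replicate 3 libraries and 3 replicate 1 libraries, 6 of the 27 libraries of the study. Within each replicate, 1 library came from cells transfected with full-length MAML3 cDNA (FL), 1 from cells transfected with a MAML3 cDNA that lacks the first exon (dEx1) and 1 from cells given the empty plasmid (vector). Both cDNAs carried a C-terminal V5 tag, and all 3 plasmids had the pCMV6-AC backbone and were delivered with a lipid reagent, so every library here comes from transfected cells. RNA was taken on day 3 after transfection. MAML3 is a Mastermind-like coactivator of Notch-dependent transcription. The study set out to compare the plasmids within QGP-1, in a second pancreatic line (BON-1) and in the neuroblastoma line SK-N-SH. The contrast described here instead runs across experiments, so each plasmid served as a block. The labels call the replicates biological and say that each was plated in triplicate, and they do not say what else changed between experiments. The 3 libraries of a replicate number may share a culture, a day and a batch, and p-values over them measure the spread between libraries of the same experiment.

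As background, QGP-1 cells come from a pancreatic islet cell carcinoma and are known to make somatostatin and carcinoembryonic antigen. Neuroendocrine cells store peptide hormones in dense-core granules, which are built from chromogranins and secretogranins and hold the convertases that cut prohormones. Dividing cells switch on 1 programme for DNA replication and a later one for mitosis, which FOXM1 and MYBL2 drive at promoters with CCAAT and CHR elements. Metallothioneins are small cysteine-rich proteins that bind zinc and copper, and their genes respond to zinc through the factor MTF1.

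The 9 QGP-1 libraries held 79395945 to 120254457 estimated counts each. Levels below are CPM, counts over the scaled library total, after scaling the libraries to each other, and values of 3 libraries stand in the order vector, FL, dEx1. On the first principal component of log2 CPM over 11976 genes (59.0% of the variance), the replicate 3 libraries lay at 33.2 to 33.5 and the replicate 1 libraries at -35.9 to -28.4. Vector replicate 2 lay at 33.9, among replicate 3, whereas FL and dEx1 replicate 2 lay at -19.0 and -22.0, near replicate 1. Whether the replicate number in the title of that vector library is right could not be checked, and vector replicate 2 means here the library so labelled. Vector replicate 1 stood apart on the second component (11.7% of the variance), at -30.5. The 10 most abundant genes took 4.48% to 4.81% of the counts in replicate 3 and 3.72% to 4.24% in replicate 1 (exact two-sided permutation test within plasmids, p = 0.25, the smallest that 8 swaps allow). All 8 neuroendocrine markers and all 6 epithelial markers examined reached 1 CPM in every QGP-1 library. Of the markers of other cell types, 2 of 6 for neuroblastoma, 1 of 6 for fibroblasts, 0 of 3 for endothelium and 1 of 5 for leukocytes reached 1 CPM in all 9 libraries. These 4 lay at 1.59 to 11.4 CPM, while PHOX2A, COL3A1, DCN, CDH5 and CD3E were listed at 0 in all 9. The neuroblastoma markers summed to 10.1 to 11.3 CPM in replicate 3 and 8.07 to 9.45 CPM in replicate 1, the fibroblast markers to 5.43 to 7.89 and 8.16 to 10.5 CPM, the endothelial markers to 0.480 to 0.979 and 0.0976 to 0.231 CPM, and the leukocyte markers to 2.18 to 3.08 and 1.65 to 3.32 CPM.

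**Figure D1:**
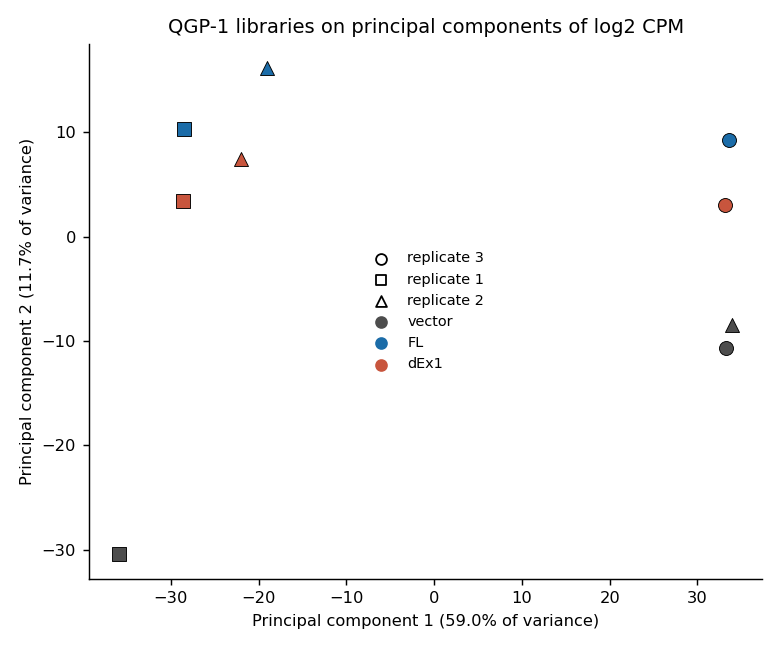
Each point is 1 of the 9 QGP-1 libraries on the first 2 principal components of log2 CPM, with shape for the replicate number and colour for the plasmid. The replicate 3 libraries and vector replicate 2 sit at 33.2 to 33.9 on the first component, and the other 5 libraries at or below -19.0.

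MAML3, the transfected gene, was at 100.2, 6267 and 5253 CPM in replicate 3, against 80.3, 2412 and 2730.4 CPM in replicate 1. Its level was thus higher in replicate 3 than in replicate 1 under each plasmid, while the FL and dEx1 libraries of both replicates lay far above the vector libraries. In replicate 2 MAML3 was at 41.3, 8854 and 5846 CPM. The FL and dEx1 libraries of replicate 2 thus lay above those of replicate 3, and its vector library lay below both other vector libraries. The fitted log2 fold of replicate 3 over replicate 1 was 0.89 (SE 0.19, adjusted p = 0.0257), and the call was lost without either dEx1 library, with all 9 libraries and without the block. The count does not separate plasmid from endogenous transcripts. MAML2, a paralogue with the same role, was at 2.27, 2.39 and 2.24 CPM in replicate 3 and 4.50, 7.79 and 7.63 CPM in replicate 1, a log2 fold of -1.48 (SE 0.21, adjusted p = 0.00795). MAML1 did not pass, at 107, 111 and 110.2 CPM in replicate 3 and 100.1, 115 and 113 CPM in replicate 1 (log2 fold 0.01, adjusted p = 0.894).

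Replicate 3 differed from replicate 1 in a large share of the transcriptome. With edgeR's quasi-likelihood test and plasmid as a block, 5153 of 14553 genes tested passed an adjusted p of 0.05, which is 35.4% of them, and this share is the background for every count of members below. Of these, 2483 were higher in replicate 3 (17.1% of genes tested) and 2670 lower (18.3%). At least 2-fold differences among them numbered 540 higher (3.71%) and 494 lower (3.39%). The direction was the same under all 3 plasmids for 5152 of the 5153 genes called, and for 9744 of the 14553 tested. The ranges of the 2 replicates did not overlap for 7701 of the genes tested, 26.4% with replicate 3 higher and 26.5% with it lower. Among the genes called, 4961 had ranges that did not overlap. A lack of overlap in a gene named below is thus what most called genes show, and adds little to its call. The SD of log2 differences between 2 libraries was 0.255 to 0.286 within replicate 3 and 0.256 to 0.392 within replicate 1, and 0.504 to 0.649 between the replicates. The median log2 fold over all genes tested was 0.04. The count of genes called fell to 2717 to 2773 when any 1 of the 4 FL or dEx1 libraries was left out, and was 4817 and 4833 without vector replicate 1 or vector replicate 3. With the block, leaving out 1 library also takes its partner out of the comparison.

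Among genes higher in replicate 3, ITLN2, FST and ITLN1 had the smallest p-values, and ITLN1 and ITLN2 are neighbouring genes for intelectins, secreted lectins that bind microbial sugars. ITLN2 was at 946, 918 and 974 CPM in replicate 3, against 68.0, 62.7 and 61.5 CPM in replicate 1, a log2 fold of 3.89 (SE 0.062, adjusted p = 0.000518). ITLN1 was at 132, 135 and 139 CPM in replicate 3 and 16.3, 14.2 and 14.0 CPM in replicate 1, a log2 fold of 3.20 (SE 0.086, adjusted p = 0.00123). The 2 groups of libraries stood far apart for both genes, with little spread inside each. The 2 genes are close relatives, and it is not stated how reads that match both were counted. Next to them lie CD244 and LY9, receptors of the SLAM family known from immune cells, which were low but higher in replicate 3: CD244 was at 3.51, 3.93 and 4.44 CPM in replicate 3 and 0.195, 0.380 and 0.182 CPM in replicate 1, 15.7-fold higher in replicate 3 (adjusted p = 0.00223). LY9 was at 1.40, 1.19 and 1.46 CPM in replicate 3 and 0.149, 0.163 and 0.304 CPM in replicate 1, and its log2 fold was 2.77 (SE 0.36, adjusted p = 0.00667). The 4 genes follow each other on chromosome 1, from 160765864 to 160924599 on hg19, among tested genes with a known position. An uncharacterised locus looked up with them, LOC101928372, has no position here. It was at 78.0, 77.3 and 83.1 CPM in replicate 3 and 5.10, 4.11 and 3.55 CPM in replicate 1 (log2 fold 4.24 (SE 0.14, adjusted p = 0.00123)). Whether reads were counted by strand is unknown, and transcripts that overlap on opposite strands are not told apart.

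Other genes with small p-values or large folds were of several kinds. FST, the secreted activin antagonist follistatin, was at 1133, 1129 and 1107 CPM in replicate 3, against 190.5, 199 and 182 CPM in replicate 1, a log2 fold of 2.57 (SE 0.055, adjusted p = 0.00105). SYTL5, a synaptotagmin-like protein of vesicle transport, was at 103, 97.2 and 106 CPM in replicate 3 and 10.0, 12.3 and 14.5 CPM in replicate 1 (log2 fold 3.08 (SE 0.13, adjusted p = 0.00123)). In each case all 3 replicate 3 libraries lay above all 3 replicate 1 libraries by several times the spread inside a replicate. CLNK, an adaptor of immune receptor signalling, was higher by 2.95 on the log2 scale, ASIC2, an acid-sensing sodium channel, by 1.71 and TAAR1, a trace amine receptor, by 1.33, each with an adjusted p of 0.00123. Among the largest folds were also LTBP1, which binds latent TGF-beta, at 30.7, 30.0 and 30.6 CPM in replicate 3 and 1.19, 3.63 and 2.69 CPM in replicate 1 (log2 fold 3.72 (SE 0.36, adjusted p = 0.00346)), and SLC18A1, the vesicular monoamine transporter of endocrine cells, at 9.44, 8.99 and 8.83 CPM in replicate 3 and 0.802, 1.06 and 0.632 CPM in replicate 1 (log2 fold 3.47 (SE 0.19, adjusted p = 0.0014)). ACKR3, a scavenging chemokine receptor, and ARHGAP6, a GTPase-activating protein, which switches small GTPases off, were also among them, with log2 folds of 3.30 and 4.05 (adjusted p = 0.00583 and 0.00234).

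Several of the largest falls outside the gene groups below were of genes at low levels. ERP27, a chaperone-like protein of the endoplasmic reticulum, was at 0.402, 0.303 and 0.0818 CPM in replicate 3 and 7.03, 4.79 and 5.25 CPM in replicate 1 (log2 fold -4.52 (SE 0.42, adjusted p = 0.00315)), and METTL7A, a lipid-droplet methyltransferase-like protein, at 1.08, 1.18 and 1.90 CPM in replicate 3 and 14.8, 13.0 and 14.5 CPM in replicate 1 (log2 fold -3.37 (SE 0.19, adjusted p = 0.00151)). ADAMTS7, a matrix metalloprotease of the thrombospondin family, was at 0.0979, 0.242 and 0.184 CPM in replicate 3 and 2.94, 3.26 and 3.74 CPM in replicate 1, and its log2 fold was -4.27 (SE 0.29, adjusted p = 0.00189). All 3 were lower in every replicate 3 library than in any replicate 1 library. SNX22, a sorting nexin, behaved otherwise: it was at 0.261, 0.414 and 0.337 CPM in replicate 3, against 25.6, 22.4 and 0.632 CPM in replicate 1. The dEx1 replicate 1 library thus lay near replicate 3, far below both other replicate 1 libraries, and the call of SNX22 (log2 fold -4.86 (SE 1.20, adjusted p = 0.0354)) was lost without any 1 of the 4 vector or FL libraries (adjusted p from 0.00113 to 0.135 over its alternatives).

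**Figure D2:**
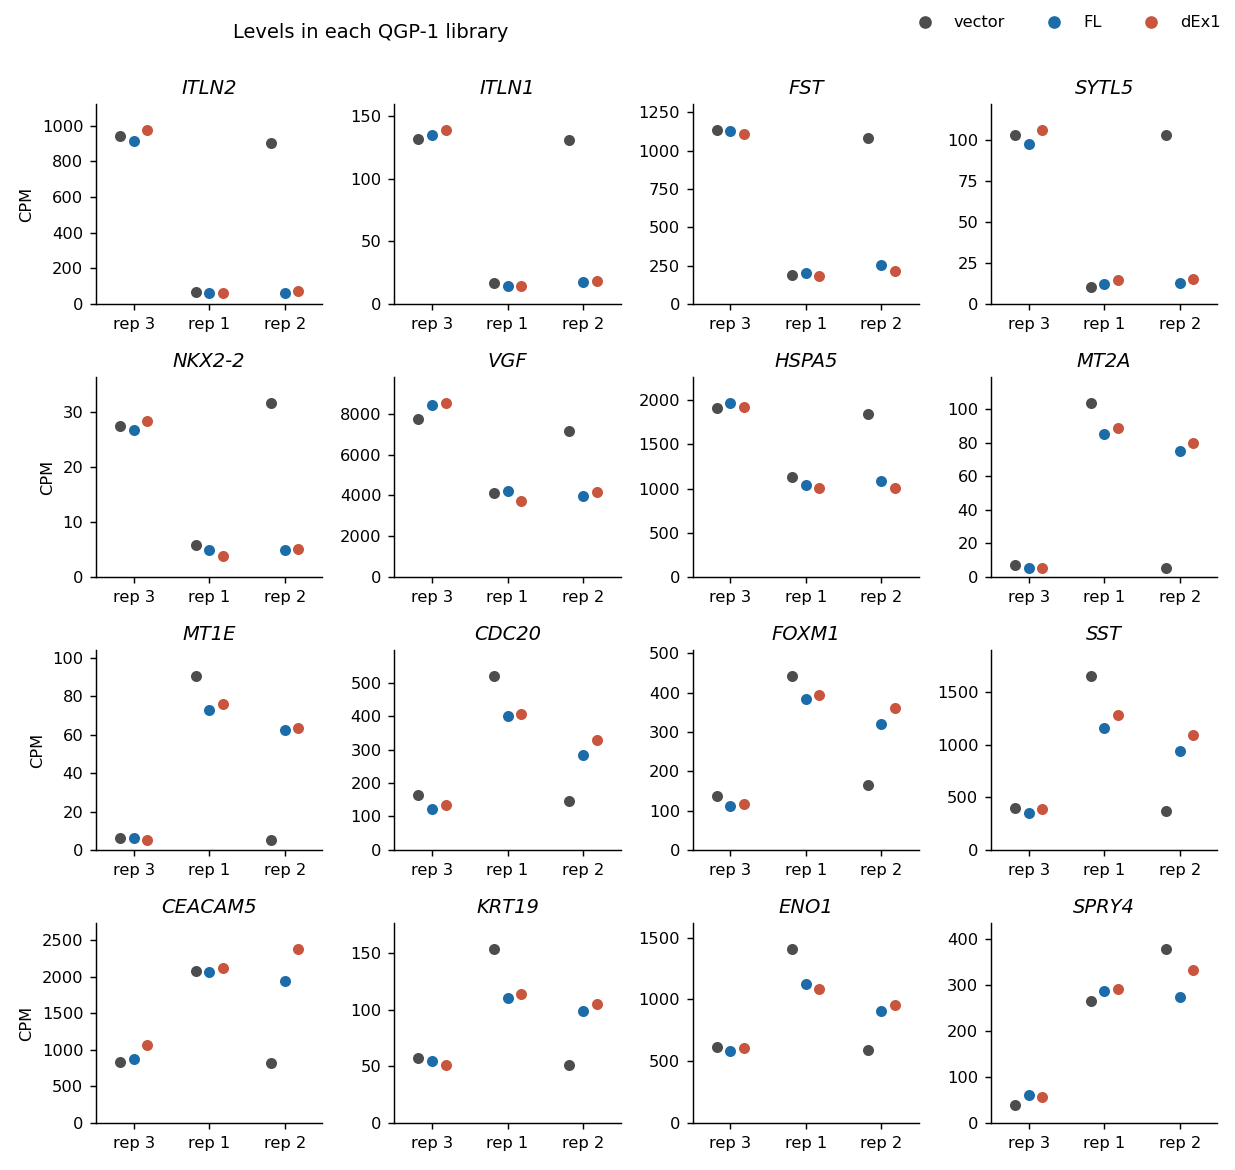
Each panel gives the level of 1 gene (CPM, axis from 0) in every QGP-1 library, in columns for replicate 3, replicate 1 and replicate 2, coloured by plasmid. The replicate 3 points lie apart from the replicate 1 points in all 16 panels, and vector replicate 2 lies with replicate 3 in 15 of them, the exception being SPRY4.

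Metallothionein transcripts were lower in replicate 3 by a wide margin. MT2A, the most widely expressed member of the family, was at 7.07, 5.29 and 5.14 CPM in replicate 3, against 103, 85.1 and 88.8 CPM in replicate 1, a log2 fold of -3.99 (SE 0.095, adjusted p = 0.0012). MT1E was at 6.28, 6.17 and 5.04 CPM in replicate 3 and 90.4, 73.1 and 76.0 CPM in replicate 1 (log2 fold -3.77 (SE 0.10, adjusted p = 0.00123)), and MT1X at 4.20, 4.43 and 3.84 CPM in replicate 3 and 29.4, 24.3 and 23.9 CPM in replicate 1 (log2 fold -2.62 (SE 0.10, adjusted p = 0.00123)). The ranges of the 2 replicates did not come near each other for any of the 3. All 5 genes of the metallothionein list that were tested fell, with a median log2 fold of -2.86; the list holds MT2A, MT1E, MT1F and MT1X and, as a further zinc-responsive gene, SLC30A1, the zinc exporter ZNT1 (log2 fold -2.00 (SE 0.20, adjusted p = 0.00369)). MT1F had a log2 fold of -2.86 (SE 0.11, adjusted p = 0.00123). Outside the list, MT1A had one of -3.28 (SE 0.12, adjusted p = 0.00123) and MT3, the brain form, one of -3.82 (SE 0.37, adjusted p = 0.00346), while MT1G and MT1M were listed at 0 in all 9 QGP-1 libraries. The family forms 1 cluster on chromosome 16. Among tested genes with a known position, 7 adjacent ones there were all called at least 2-fold lower. They were MT3, MT2A, MT1E, MT1A, the pseudogene MT1DP, MT1F and MT1X, from 56622986 to 56718108 on hg19. These genes are near-identical in parts, so reads could have been split among them, and the single values are less certain than their common direction. All 5 list members kept their calls without any 1 of the 6 libraries, with DESeq2 and in the other fits run.

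The 250 bases before the start of MT2A and of MT1X are shown because these genes carry metal response elements, to which MTF1 binds. They are from RefSeq on GRCh38.p14, each written 5′ to 3′ on the strand of its gene, and capitals mark each match of TGCACNC or TGCGCNC on either strand.
MT2A, chr16:56608334-56608583, plus strand: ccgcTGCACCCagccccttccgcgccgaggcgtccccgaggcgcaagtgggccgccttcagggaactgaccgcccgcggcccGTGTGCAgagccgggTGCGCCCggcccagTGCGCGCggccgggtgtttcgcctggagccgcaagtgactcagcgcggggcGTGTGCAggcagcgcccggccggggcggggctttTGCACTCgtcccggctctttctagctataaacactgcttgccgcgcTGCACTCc
MT1X, chr16:56682220-56682469, plus strand: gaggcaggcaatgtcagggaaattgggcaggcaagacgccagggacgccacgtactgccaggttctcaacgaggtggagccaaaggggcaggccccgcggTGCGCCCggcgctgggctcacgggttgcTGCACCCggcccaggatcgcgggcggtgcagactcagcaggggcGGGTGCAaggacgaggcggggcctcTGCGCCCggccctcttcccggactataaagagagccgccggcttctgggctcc
MT2A held 7 matches and MT1X held 4. The promoter table has an entry for these 2 of the 6 metallothionein genes looked up. The same letters occur in 24.7% of the 27305 promoters of full length, and in 32.7% of the 11319 of tested genes. A match of letters is a description, not a bound site.

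Genes of the cell division programme were lower in replicate 3 throughout. All 19 tested members of the mitosis list fell, with a median log2 fold of -1.51, against 18.3% of all genes tested. CDC20, the activator of the anaphase-promoting complex, was at 163, 121 and 135 CPM in replicate 3, against 519, 399 and 405 CPM in replicate 1, a log2 fold of -1.65 (SE 0.059, adjusted p = 0.00123). FOXM1, the factor that drives mitotic genes, was at 138, 111 and 118 CPM in replicate 3 and 441, 385 and 395 CPM in replicate 1 (log2 fold -1.73 (SE 0.061, adjusted p = 0.00123)). CCNB2, a B-type cyclin, was at 62.8, 54.3 and 54.7 CPM in replicate 3 and 199.8, 166 and 168 CPM in replicate 1 (log2 fold -1.63 (SE 0.056, adjusted p = 0.00123)). In each of these genes the highest replicate 3 library lay below the lowest replicate 1 library by more than 2-fold, and the vector library was the highest of its replicate. BIRC5 (survivin), TPX2 (spindle assembly) and AURKB (chromosome passenger kinase) had log2 folds of -1.55, -1.51 and -1.68, and the smallest falls in the list were of PLK1, the mitotic entry kinase (-0.95), and of MKI67, the gene of the Ki-67 antigen (-1.04). HMGB2, a chromatin protein of dividing cells, and TACC3, a spindle protein, fell by 1.71 and 1.62 on the log2 scale (adjusted p = 0.00123 for each).

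Of 20 genes of the DNA replication list, 16 fell and none rose, with a median log2 fold of -0.79. TYMS, thymidylate synthase, was at 27.0, 25.2 and 26.8 CPM in replicate 3, against 82.0, 76.9 and 72.5 CPM in replicate 1, a log2 fold of -1.54 (SE 0.076, adjusted p = 0.00126). MCM2, a subunit of the replicative helicase, was at 102, 92.2 and 97.2 CPM in replicate 3 and 216, 197 and 199 CPM in replicate 1 (log2 fold -1.06 (SE 0.057, adjusted p = 0.0013)). Both genes were lower by at least 2-fold in replicate 3, with no overlap between replicates. CDT1 and GINS2, which load and run that helicase, had log2 folds of -1.14 and -1.15. The 4 members that did not pass were CCNE1 (-0.17), CCNE2 (-0.19), SLBP (-0.14) and UNG (-0.02). In bulk RNA, fewer cells in a phase of the cycle and less RNA of these genes per cell cannot be told apart. All 19 mitotic and 16 replication genes were called without any 1 of the 6 libraries. In a fit of 18 libraries of 3 lines, which shares 1 estimate of spread among lines, 5 mitotic and 1 replication genes were called; without BON-1 vector replicate 1, a library that stood apart in that line, the same fit called 19 and 15.

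The 250 bases before the starts of CCNB2 and CDC20 are shown because mitotic promoters are known for paired CCAAT boxes and a CHR element. They are from RefSeq on GRCh38.p14, 5′ to 3′ on the strand of the gene, with capitals for CCAAT and for the CHR letters TTTGAA, each on either strand.
CCNB2, chr15:59104896-59105145, plus strand: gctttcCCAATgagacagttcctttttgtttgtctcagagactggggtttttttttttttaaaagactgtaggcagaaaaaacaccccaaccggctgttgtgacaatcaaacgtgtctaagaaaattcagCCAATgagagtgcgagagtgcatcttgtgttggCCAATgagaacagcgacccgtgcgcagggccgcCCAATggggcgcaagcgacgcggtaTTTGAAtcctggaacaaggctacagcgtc
CDC20, chr1:43358731-43358980, plus strand: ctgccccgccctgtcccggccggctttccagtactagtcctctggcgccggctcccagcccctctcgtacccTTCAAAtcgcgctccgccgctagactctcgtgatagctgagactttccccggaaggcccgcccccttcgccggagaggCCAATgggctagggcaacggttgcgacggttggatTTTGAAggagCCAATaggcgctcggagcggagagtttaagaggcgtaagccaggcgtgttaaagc
CCNB2 held 1 CHR match and 4 CCAAT matches, and CDC20 held 2 of each. Of 19 mitotic genes, 15 had a promoter in the table. The CHR letters were in 8 of these 15, against 13.6% of all promoters and 8.62% of those of tested genes. CCAAT was in 12 of 15, against 33% and 34.3%.

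Genes of the secretory granule were higher in replicate 3. Of 14 tested members of the granin and prohormone list, 10 rose and none fell, with a median log2 fold of 0.65, against 17.1% of all genes tested. VGF, a granule protein and neuropeptide precursor, was at 7748, 8450.5 and 8509 CPM in replicate 3, against 4134, 4199.8 and 3708 CPM in replicate 1, a log2 fold of 1.05 (SE 0.061, adjusted p = 0.00159). CPE, the carboxypeptidase that trims prohormone ends, was at 2419, 2474 and 2524 CPM in replicate 3 and 1308, 1419.5 and 1316 CPM in replicate 1 (log2 fold 0.88 (SE 0.051, adjusted p = 0.00154)). CHGB, chromogranin B, was at 1536, 1630.0 and 1599.7 CPM in replicate 3 and 1056, 1097 and 973 CPM in replicate 1 (log2 fold 0.62 (SE 0.053, adjusted p = 0.00268)). For all 3 the replicate 3 libraries lay above the replicate 1 libraries with no overlap. PCSK2, a prohormone convertase, was at 499, 456 and 524 CPM in replicate 3 and 160.0, 170.1 and 119 CPM in replicate 1, the largest log2 fold among those that rose, 1.74 (SE 0.15, adjusted p = 0.00274). PCSK1N, an inhibitor of the related convertase PCSK1, had a log2 fold of 0.90. CHGA, SCG3, SYP, PAM and SNAP25 rose by 0.69, 0.76, 0.58, 0.51 and 0.52. SCG2, secretogranin II, was at 3614, 3686 and 3575 CPM in replicate 3 and 1891, 1755 and 287 CPM in replicate 1. Its dEx1 replicate 1 library lay far below both other replicate 1 libraries, and the gene did not pass (log2 fold 1.84 (SE 0.61, adjusted p = 0.0751)). INSM1, a neuroendocrine transcription factor, was at 312, 50.5 and 317 CPM in replicate 3 and 213, 209 and 223 CPM in replicate 1, so that FL replicate 3 lay below every other library of the 6, and it did not pass either (log2 fold -0.27, adjusted p = 0.755).

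Pancreatic endocrine genes moved in both directions. Of 14 tested, 2 rose and 3 fell, near the shares of all genes tested (17.1% and 18.3%). The median log2 fold was 0.07, against 0.04 over all genes tested, so the list as a whole did not stand out. NKX2-2, a homeobox factor of islet cells, was at 27.4, 26.6 and 28.3 CPM in replicate 3, against 5.81, 4.85 and 3.84 CPM in replicate 1, a log2 fold of 2.53 (SE 0.15, adjusted p = 0.00156). SST, the hormone somatostatin, went the other way, at 396, 351 and 384 CPM in replicate 3 and 1646, 1161 and 1283 CPM in replicate 1 (log2 fold -1.83 (SE 0.077, adjusted p = 0.00123)). Neither gene had overlapping replicates, and the vector library was the highest of replicate 1 for SST. NKX6-1, a beta cell factor, fell by 1.56 on the log2 scale (adjusted p = 0.013). ISL1 was the third that fell (log2 fold -0.39, adjusted p = 0.0408), and it did not pass once any 1 of the FL or dEx1 libraries was left out (adjusted p up to 0.593 over its alternatives). PAX6 (0.10) and PDX1 (-0.16) did not pass. Summed over the 8 neuroendocrine markers, the level was 6991 to 7176 CPM in replicate 3 and 3519 to 5719 CPM in replicate 1, but without SCG2, which did not pass, the sums overlapped, at 3305 to 3582 CPM in replicate 3 and 3232 to 3828 CPM in replicate 1.

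Chaperone genes of the endoplasmic reticulum were higher in replicate 3, and cytosolic ones lower. Of 19 tested members of the ATF4 and ER stress list, 12 rose and 2 fell, with a median log2 fold of 0.45. HSPA5, the ER chaperone BiP, was at 1908, 1963 and 1927 CPM in replicate 3, against 1129, 1038 and 1009 CPM in replicate 1, a log2 fold of 0.88 (SE 0.049, adjusted p = 0.00146). DNAJB9, its co-chaperone ERdj4, was at 144, 141 and 144 CPM in replicate 3 and 46.3, 45.8 and 49.7 CPM in replicate 1 (log2 fold 1.60 (SE 0.065, adjusted p = 0.00123)). HERPUD1, of ER-associated degradation, was at 197, 195 and 189.6 CPM in replicate 3 and 92.7, 80.9 and 85.7 CPM in replicate 1 (log2 fold 1.18 (SE 0.061, adjusted p = 0.0013)). The libraries of a replicate lay close together for these 3 genes and the replicates did not overlap. MANF, CRELD2 and PDIA4, other genes of the unfolded protein response, rose by 0.95, 0.76 and 0.45. The members that fell were PHGDH and PSAT1. PHGDH, the first enzyme of serine synthesis, was at 155, 149 and 137 CPM in replicate 3 and 369, 288 and 318 CPM in replicate 1 (log2 fold -1.13 (SE 0.075, adjusted p = 0.00181)), and a later enzyme of that path, PSAT1, had a log2 fold of -0.31, which did not pass once any 1 of the 6 libraries was left out (adjusted p up to 0.214). The cystine carrier SLC7A11 rose by 0.87. The other 4 members that rose and do not encode proteins known from the ER had log2 folds of 0.28 to 0.69, and 3 of them did not pass once any 1 of the FL or dEx1 libraries was left out. ATF4 (0.12), XBP1 (0.13) and DDIT3 (0.91) did not pass.

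The 250 bases before the starts of HSPA5 and CRELD2 are shown because both hold an ER stress response element, searched on either strand as CCAAT, then 9 bases of any kind, then CCACG, and given in capitals. They are from RefSeq on GRCh38.p14, 5′ to 3′ on the strand of the gene.
HSPA5, chr9:125241344-125241593, minus strand: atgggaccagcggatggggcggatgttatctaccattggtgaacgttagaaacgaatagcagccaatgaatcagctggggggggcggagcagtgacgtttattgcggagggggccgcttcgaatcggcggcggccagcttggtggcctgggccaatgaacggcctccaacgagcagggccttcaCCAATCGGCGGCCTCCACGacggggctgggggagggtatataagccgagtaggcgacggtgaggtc
CRELD2, chr22:49918384-49918633, plus strand: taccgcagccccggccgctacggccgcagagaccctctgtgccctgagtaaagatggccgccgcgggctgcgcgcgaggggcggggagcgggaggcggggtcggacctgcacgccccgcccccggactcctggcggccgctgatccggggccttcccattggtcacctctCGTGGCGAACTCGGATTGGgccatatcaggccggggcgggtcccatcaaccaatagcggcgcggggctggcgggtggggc
The element was in these 2 of the 11 risen members of the ATF4 and ER stress list that have a promoter in the table. It was in 0.0806% of all promoters and 0.106% of those of tested genes. CCAAT alone, which is part of the element, was in 8 of the 11, against 33% of all promoters and 34.3% of those of tested genes. Absence of the letters from the other 9 windows says nothing about the factor.

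Of 13 tested heat shock genes, 11 fell and none rose, with a median log2 fold of -0.42. HSP90AA1, the inducible cytosolic HSP90, was at 1074, 1137 and 1093 CPM in replicate 3, against 1994, 1926 and 1886 CPM in replicate 1, a log2 fold of -0.80 (SE 0.044, adjusted p = 0.00141). HSPB1, a small heat shock protein, was at 27.3, 38.9 and 26.2 CPM in replicate 3 and 129, 107 and 92.3 CPM in replicate 1 (log2 fold -1.83 (SE 0.16, adjusted p = 0.00267)). Both were lower in every replicate 3 library. HSPD1, the mitochondrial chaperonin, and HSPA8, the constitutive HSC70, fell by 0.54 and 0.46. The count of 11 was 4 without dEx1 replicate 3 or dEx1 replicate 1, and 7 without FL replicate 3 or FL replicate 1.

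Lysosome, autophagy and amino acid transport genes leaned upward. Of 17 tested lysosome and autophagy genes, 8 rose and none fell, with a median log2 fold of 0.22. WIPI1, an early autophagosome protein, was at 99.3, 94.9 and 94.2 CPM in replicate 3, against 38.9, 34.9 and 35.4 CPM in replicate 1, a log2 fold of 1.41 (SE 0.065, adjusted p = 0.00123). GABARAPL1, an autophagosome ubiquitin-like protein, rose by 0.82, and HEXA, a lysosomal hexosaminidase subunit, rose by 0.64. The master regulator TFEB (0.02) and LAMP1 (0.22) did not pass. Of 11 amino acid transport genes, 5 rose and none fell (median 0.33). TXNIP, which responds to glucose and was kept in that list, was at 908, 767 and 772 CPM in replicate 3 and 617, 454 and 446 CPM in replicate 1 (log2 fold 0.71 (SE 0.059, adjusted p = 0.0026)). Without any 1 of the FL or dEx1 libraries, 5 of the lysosome genes were called, and without FL replicate 3 or FL replicate 1, 3 of the transport genes.

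Genes of biosynthesis and energy metabolism were mostly lower in replicate 3. Of 22 cholesterol synthesis genes tested, 15 fell and 1 rose, with a median log2 fold of -0.45. FDPS, farnesyl diphosphate synthase, was at 239.6, 224 and 225 CPM in replicate 3, against 538, 416 and 428 CPM in replicate 1, a log2 fold of -0.99 (SE 0.067, adjusted p = 0.00186). LSS, which forms the sterol rings, fell by 0.85. CYP51A1, the sterol demethylase, was the member that rose (0.23 (SE 0.055, adjusted p = 0.0335)), which did not pass once any 1 of the FL or dEx1 libraries was left out (adjusted p up to 0.156). The regulator SREBF2 (-0.16) did not pass. The promoters of the lowered cholesterol genes were also searched, for a sterol response element (SRE). It was in 0 of the 11 that have a promoter entry, against 0.0366% of all promoters and 0.0265% of those of tested genes. Matches to this element are rare, so its absence from these promoters decides nothing. CCAAT was in 10 of these 11, against 33% of all promoters and 34.3% of those of tested genes. Of 11 fatty acid synthesis genes, 8 fell and 1 rose (median -0.40). FASN, fatty acid synthase, was at 837, 734 and 773 CPM in replicate 3 and 1541, 1306 and 1363 CPM in replicate 1 (log2 fold -0.84 (SE 0.043, adjusted p = 0.0013)), and SCD, the desaturase, fell by 0.43. The 8 became 4 without dEx1 or FL replicate 1, and 5 without dEx1 or FL replicate 3.

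Glycolytic enzymes fell along with them. Of 22 tested members of the hypoxia and glycolysis list, 11 fell and 2 rose, with a median log2 fold of -0.53. ENO1, enolase, was at 614, 584 and 607 CPM in replicate 3, against 1404, 1128 and 1079.9 CPM in replicate 1, a log2 fold of -0.98 (SE 0.075, adjusted p = 0.00222). LDHA, lactate dehydrogenase, fell by 1.18 and GAPDH by 0.66, and CA9, a carbonic anhydrase induced by hypoxia, was at 0.392, 0.596 and 0.951 CPM in replicate 3 and 6.58, 6.99 and 3.01 CPM in replicate 1 (log2 fold -3.06 (SE 0.52, adjusted p = 0.0129)). The members that rose were VEGFA (0.65) and ADM (0.80), both secreted factors induced by hypoxia, while the hypoxia genes BNIP3 (-0.21), NDRG1 (-0.02) and KDM3A (0.12) did not pass.

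In the NRF2 list, 6 of 14 fell and 2 rose, and the median log2 fold was -0.29. PGD, an enzyme of the pentose phosphate path that makes NADPH, fell by 0.78, and NQO1, a quinone reductase, by 0.48. The members that rose were the glutathione genes GCLC (0.53) and SLC7A11 (0.87), so the list did not move as 1 group. Of 19 nuclear genes of the respiratory chain, 15 fell and none rose (median -0.36), with NDUFV1, a complex I subunit, at 149.6, 156 and 144 CPM in replicate 3 and 269, 221 and 211 CPM in replicate 1 (log2 fold -0.62 (SE 0.079, adjusted p = 0.00635)). Of 24 ribosomal protein genes, 14 fell and none rose (median -0.29), with RPS2 at 1909, 1884 and 1905 CPM in replicate 3 and 3404, 2693 and 2876 CPM in replicate 1 (log2 fold -0.64 (SE 0.065, adjusted p = 0.00377)). These 2 lists moved by less than the cell division genes, and the fall rested on small differences: 4 or 5 respiratory chain genes and 4 or 6 ribosomal genes were called without any 1 of the FL or dEx1 libraries.

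**Figure D3:**
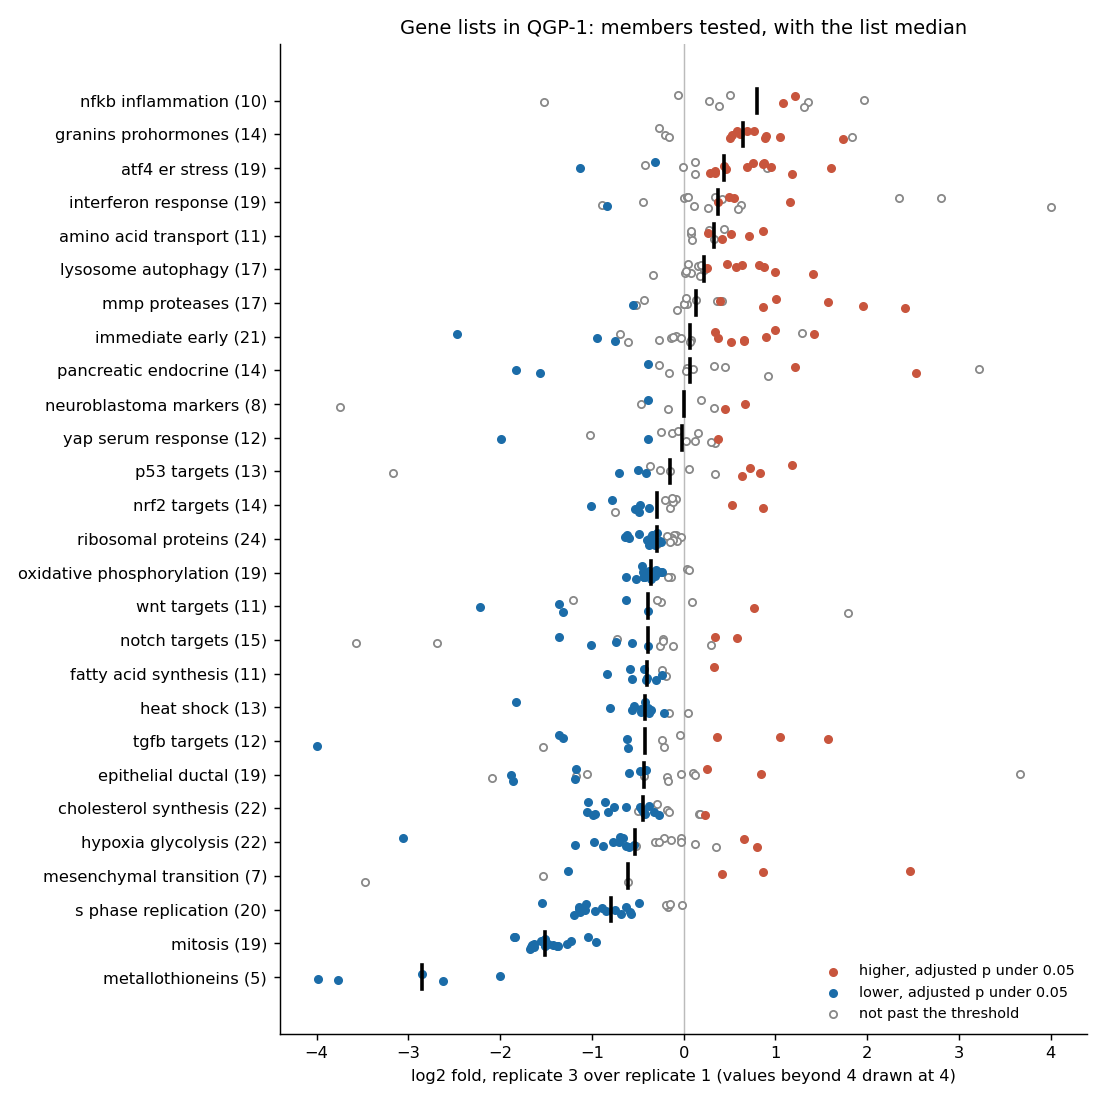
Each row is a gene list and each point a tested member, placed by its log2 fold of replicate 3 over replicate 1, filled where its adjusted p was under 0.05, with a black bar for the list median and the number tested in brackets; folds beyond 4 in size are drawn at 4 or -4. The metallothionein and mitosis lists lie wholly below 0, at medians of -2.86 and -1.51, and the granin list has its median at 0.65.

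Epithelial genes fell in part. Of 19 tested members of the epithelial and ductal list, 7 fell and 2 rose, with a median log2 fold of -0.44. CEACAM5, carcinoembryonic antigen, was at 839.6, 882 and 1067 CPM in replicate 3, against 2079, 2066 and 2122 CPM in replicate 1, a log2 fold of -1.17 (SE 0.071, adjusted p = 0.00166). SOX9, a factor of ductal and progenitor cells, was at 14.5, 15.3 and 13.3 CPM in replicate 3 and 46.1, 53.4 and 58.9 CPM in replicate 1 (log2 fold -1.86 (SE 0.12, adjusted p = 0.00181)). KRT19, a ductal keratin, was at 56.9, 54.6 and 51.5 CPM in replicate 3 and 153, 109.9 and 114 CPM in replicate 1 (log2 fold -1.19 (SE 0.092, adjusted p = 0.00231)). The replicates did not overlap for these genes, and CEACAM6, a close relative whose reads could be split with CEACAM5, had a log2 fold of -1.88. CEACAM1, another member of that family, rose by 0.84, as did CDH1, E-cadherin, by 0.26, which did not pass once any 1 of the FL or dEx1 libraries was left out (adjusted p up to 0.141). EPCAM (0.11), KRT18 (-0.17) and CLDN7 (0.13) did not pass. Summed over the 6 epithelial markers, the level was 5302 to 5635 CPM in replicate 3 and 6818 to 8198 CPM in replicate 1. ZEB1, a repressor of epithelial genes, was at 12.7, 11.4 and 11.0 CPM in replicate 3 and 1.10, 2.87 and 2.80 CPM in replicate 1 (log2 fold 2.47 (SE 0.37, adjusted p = 0.00928)), and MMP2, a gelatinase, at 168, 167 and 173 CPM in replicate 3 and 89.3, 96.7 and 95.0 CPM in replicate 1 (log2 fold 0.86 (SE 0.063, adjusted p = 0.00212)). Of 16 mesenchymal genes listed, 7 passed the filter on low counts, and VIM was not among them. Of the 7, 3 rose and 1 fell. Their median log2 fold was -0.61, which changed sign in 6 of the alternative fits. The member that fell was LOX (log2 fold -1.26, adjusted p = 0.00497). Besides ZEB1 and MMP2, CDH2 rose (log2 fold 0.42, adjusted p = 0.042), which did not pass once any 1 of the 6 libraries was left out.

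Signalling target genes moved in both directions within each pathway. Of 11 Wnt target genes tested, 5 fell and 1 rose. LGR5, a stem cell receptor and Wnt target, was at 5.01, 6.72 and 4.36 CPM in replicate 3, against 23.0, 27.7 and 23.6 CPM in replicate 1, a log2 fold of -2.22 (SE 0.11, adjusted p = 0.0013), and LEF1, a factor of the same pathway, fell by 1.36. TNFRSF19 was the member that rose (0.77 (SE 0.066, adjusted p = 0.00274)). Among 12 TGF-beta and BMP target genes, 5 fell and 3 rose. ID1, an inhibitor of differentiation factors induced by BMP, was at 84.6, 70.5 and 68.3 CPM in replicate 3 and 227, 174 and 178 CPM in replicate 1 (log2 fold -1.36 (SE 0.057, adjusted p = 0.00123)), and ID3 and ID2 fell by 1.31 and 0.61. The replicates did not overlap for any of these 3 genes. SMAD7 (-0.23) and BAMBI (-0.04), inhibitors induced by these pathways, did not pass.

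In the Notch list, named for the pathway in which MAML3 acts, 5 of 15 members tested fell and 2 rose, with a median log2 fold of -0.39. The list holds HES family members and a receptor, and whether each member responds to Notch was not tested. HES6, a neural HES family member, was at 59.0, 34.3 and 49.3 CPM in replicate 3, against 116, 80.2 and 89.6 CPM in replicate 1, a log2 fold of -1.01 (SE 0.098, adjusted p = 0.00347). NOTCH3, a receptor, fell by 0.74 and HES7 by 1.35, HEY1 rose by 0.58 (adjusted p = 0.013, and up to 0.0568 without FL replicate 3 or FL replicate 1), and HES1, the best known target, did not pass (-0.22). MAML3 itself was higher in replicate 3 than in replicate 1, and higher still in FL and dEx1 replicate 2. Its part in these differences was not tested.

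The immediate early and ERK feedback list also split, with 8 of 21 higher and 3 lower. EGR3, FOSB and FOS, fast transcription factors, rose by 1.42, 1.00 and 0.66, and DUSP5, an ERK phosphatase, was at 49.3, 48.0 and 45.5 CPM in replicate 3 and 29.2, 24.1 and 23.9 CPM in replicate 1 (log2 fold 0.90 (SE 0.076, adjusted p = 0.00263)). SPRY4, a feedback inhibitor of receptor kinases, was at 38.3, 59.9 and 55.5 CPM in replicate 3, against 265, 287 and 292 CPM in replicate 1, a log2 fold of -2.47 (SE 0.11, adjusted p = 0.00123). ETV4 and PHLDA1 fell by 0.94 and 0.75. The 8 became 5 without dEx1 replicate 3 or dEx1 replicate 1.

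The remaining lists held smaller or mixed counts. Of 19 interferon response genes, 4 rose and 1 fell, against background shares of 17.1% and 18.3%, and the 4 became 2 without any 1 of the FL or dEx1 libraries. OAS3, an antiviral sensor, was at 19.2, 20.8 and 19.1 CPM in replicate 3 and 33.3, 39.6 and 33.6 CPM in replicate 1 (log2 fold -0.84 (SE 0.079, adjusted p = 0.00327)), and ISG15, a ubiquitin-like antiviral protein, at 59.7, 56.8 and 52.0 CPM in replicate 3 and 44.8, 36.3 and 35.6 CPM in replicate 1 (log2 fold 0.54 (SE 0.074, adjusted p = 0.00742)), so members of the list went opposite ways. Of 10 NF-kB genes tested, 2 rose and none fell: ICAM1 at 6.36, 6.21 and 8.98 CPM in replicate 3 and 2.53, 2.89 and 3.93 CPM in replicate 1 (log2 fold 1.22 (SE 0.12, adjusted p = 0.00331)), and TNFAIP3, with a log2 fold of 1.09, which did not pass once any 1 of the FL or dEx1 libraries was left out (adjusted p up to 0.0790 over its alternatives). The 2 became 4 without vector replicate 1 or vector replicate 3, and 1 without any 1 of the FL or dEx1 libraries. Of 13 p53 target genes, 4 rose and 3 fell. BTG2, an antiproliferative factor, was at 179, 173 and 176 CPM in replicate 3 and 119, 109 and 115 CPM in replicate 1 (log2 fold 0.63 (SE 0.055, adjusted p = 0.00274)), FDXR, a mitochondrial reductase, fell by 0.71, and MDM2 did not pass (-0.25). Of 17 extracellular protease genes, 6 rose and 1 fell, and the 6 became 3 without FL replicate 3, with MMP13, collagenase 3, at 13.8, 15.0 and 12.7 CPM in replicate 3 and 1.82, 4.68 and 2.05 CPM in replicate 1 (log2 fold 2.41 (SE 0.28, adjusted p = 0.00501)).

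The replicate 2 libraries took no part in the choice of these genes. Each was placed, gene by gene, between the mean log2 CPM of replicate 1 (position 0) and of replicate 3 (position 1). Over the 5153 genes called, vector replicate 2 had a median position of 0.973 (quartiles 0.839 and 1.11) and lay nearer to replicate 3 for 94.6% of them. FL replicate 2 had a median of 0.258 and dEx1 replicate 2 one of 0.174, and they lay nearer to replicate 3 for 23.0% and 14.7%. The 3 replicate 2 libraries thus did not share a state: the vector library lay with replicate 3, and the FL and dEx1 libraries near replicate 1. ITLN2 was at 904, 62.6 and 70.2 CPM and MT2A at 5.57, 74.9 and 79.4 CPM in the replicate 2 vector, FL and dEx1 libraries. The same held for CDC20, at 146, 285 and 328 CPM, where the FL and dEx1 libraries lay between the ends.

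**Figure D4:**
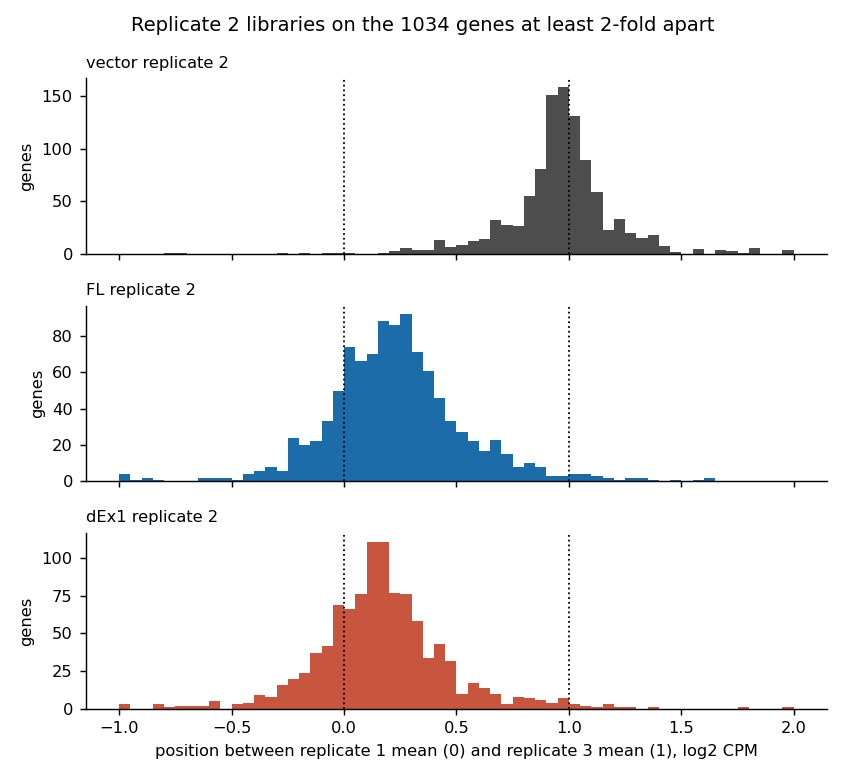
Histograms give the number of genes at each position of a replicate 2 library between the replicate 1 mean (0) and the replicate 3 mean (1) of log2 CPM, over the 1034 genes called with at least a 2-fold difference, 1 panel for each library. Vector replicate 2 peaks near 1, with a median of 0.972, and FL and dEx1 replicate 2 have medians of 0.217 and 0.158.

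The gene lists did not all sit at the same place in FL and dEx1 replicate 2. For the 16 replication genes called, FL and dEx1 replicate 2 had median positions of -0.000247 and -0.0701, at the level of replicate 1. For the 19 mitotic genes the medians were 0.357 and 0.252, and for the 11 heat shock genes 0.564 and 0.583, about midway. For the 14 ribosomal protein genes they were 0.641 and 0.810, nearer to replicate 3. For the 10 granin genes they were -0.0996 and -0.132. Vector replicate 2 lay at medians of 0.747 to 1.09 in all of the 26 lists with at least 3 called members. SPRY4 was an exception, chosen after its values were seen: it was at 377, 274 and 333 CPM in vector, FL and dEx1 replicate 2, so the vector library was at the level of replicate 1. Vector replicate 2 was not a copy of vector replicate 3, since the SD of their log2 differences was like that between libraries of replicate 3 (0.253 to 0.291 between vector replicate 2 and the 3 replicate 3 libraries).

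The same contrast was set beside those of the other lines, in 1 fit of 18 libraries with plasmid within line as a block. Replicate numbers do not tie the lines to a day. BON-1 vector replicate 1 differed from the other 8 BON-1 libraries by an SD of log2 differences of 0.700 to 0.733, against 0.236 to 0.481 among those 8, so values without it, a choice made after seeing the data, stand beside those with it. Fitted on its own 6 libraries, BON-1 gave 109 genes called (2570 at an unadjusted p under 0.05), but 2689 (5284) without that library. SK-N-SH gave 0 (2800), and QGP-1 gave 5153 (6889). In the fit of 18, the replicates differed in 2793 genes in QGP-1, 1118 in BON-1 and 321 in SK-N-SH, and without that library in 4696, 1053 and 1063. The other lines thus also differed between replicates 3 and 1. In the fit of 18, the shift of QGP-1 differed from that of BON-1 in 2035 of 16951 genes, 1052 higher (6.21%) and 983 lower (5.80%). It differed from that of SK-N-SH in 2352 genes, 1292 higher (7.62%) and 1060 lower (6.25%). Without BON-1 vector replicate 1, the counts were 2310 (6.19% higher and 7.00% lower) and 4258 (12.5% higher and 11.8% lower).

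The lists and genes named here were chosen with their QGP-1 shifts known. Those shifts are 1 side of each difference, so the p-values are descriptions. Metallothioneins fell in QGP-1 relative to both other lines. All 5 list members had a lower shift in QGP-1 than in BON-1 and than in SK-N-SH, with and without BON-1 vector replicate 1. The shift of MT2A in QGP-1 lay -4.85 from that in BON-1 on the log2 scale (SE 0.71, adjusted p = 0.00586), and -3.95 without that library (SE 0.13, adjusted p = 4.96e-05). It lay -3.93 from that in SK-N-SH (SE 0.68, adjusted p = 0.00959). Granin genes differed in the other direction, 9 of 14 higher than in BON-1 and 8 of 14 higher than in SK-N-SH, and 9 and 9 without that library. For VGF the difference from BON-1 was 2.16 (SE 0.37, adjusted p = 0.0103), or 1.93 without that library (SE 0.39, adjusted p = 0.0203), and that from SK-N-SH was 2.27 (SE 0.37, adjusted p = 0.00846). In the mitosis list, 1 of 19 differences passed against BON-1 and 4 against SK-N-SH, and without BON-1 vector replicate 1 these were 17 and 19. The median shift of mitotic genes in BON-1 itself turned with that library, being 0.56 on the log2 scale with it and -0.35 without it, against -1.47 in QGP-1 and 0.52 in SK-N-SH in the fit of 18. For NRF2 genes, 9 of 14 shifts were lower in QGP-1 than in BON-1, where the median was 0.45, and 9 of 15 without that library, with a BON-1 median of 0.48. Some lists that fell in QGP-1 also had medians below 0 in BON-1. Fatty acid synthesis genes had a median of -0.52 in BON-1, and without that library of -0.58, against -0.36 in QGP-1. Ribosomal protein genes had medians of -0.25 in QGP-1 and -0.23 in BON-1, and of -0.25 and -0.11 without that library. The follistatin gene FST had a difference of -0.09 from BON-1 (SE 0.25, adjusted p = 0.923), or 0.08 without that library (SE 0.25, adjusted p = 0.982), and of 2.12 from SK-N-SH (SE 0.24, adjusted p = 0.00276).

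**Figure D5:**
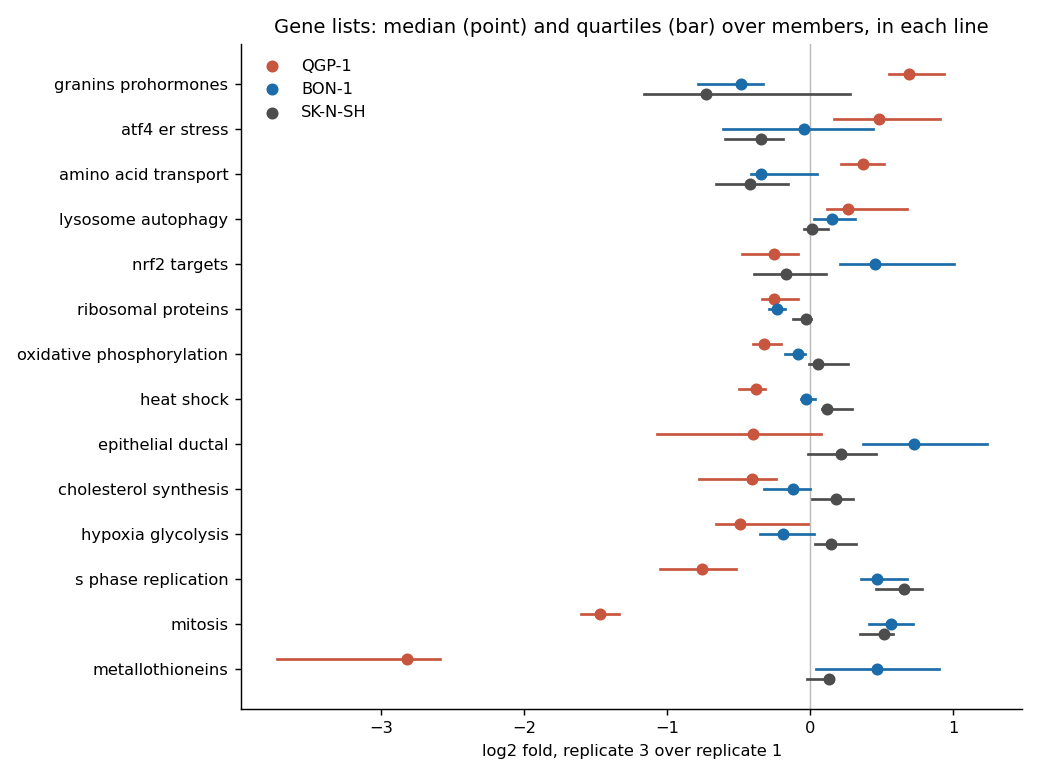
For 14 gene lists, points give the median log2 fold of replicate 3 over replicate 1 over the members and bars their quartiles, in QGP-1, BON-1 and SK-N-SH, from the fit of 18 libraries that includes BON-1 vector replicate 1. In QGP-1 the mitosis and metallothionein medians lie at -1.47 and -2.82, below those of the other lines, and the granin median at 0.69 lies above them; without that library the BON-1 mitosis median is -0.35.

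The difference between replicates was spread over the genome. Median log2 folds by chromosome ran from -0.11 on chromosome 22 to 0.14 on chromosome 13, and the share of genes called higher from 9.16% on chromosome 21 to 22.7% on chromosome 13. A search made after the values were seen, and given with no test, covered tested genes with a known position. It found 8 runs of at least 3 adjacent genes called at least 2-fold in 1 direction. The longest were the 7 metallothionein genes and the 4 genes at the intelectin locus; the others held 3 genes each. By base content, the third of genes with the lowest GC had a median log2 fold of 0.10 and the third with the highest GC one of -0.05 (13782 genes with a value, 94.7% of those tested), and across genes Spearman's rank correlation was -0.10 with GC and 0.15 with transcript length, as descriptions.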

How the data were processed

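RNA from transfected QGP-1, BON-1 and SK-N-SH cells was sequenced from libraries made with a TruSeq mRNA kit, per the labels' protocols. The deposited table holds estimated counts, whole numbers for 23234 gene rows (23230 symbols, 4 of them repeated), and the authors' tools were Trimmomatic, HISAT2 and StringTie with the hg19 build, per the submitters' processing notes. Tool versions, annotation and strand of counting are not given in the sources used here, nor is the number of fragments behind 1 unit of these estimates, so depth is known only in those units, 79395945 to 120254457 per QGP-1 library.

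Libraries were grouped by the replicate number and plasmid in their titles. The main comparison was edgeR's quasi-likelihood F test (edgeR 4.0.16, limma 3.58.1, R 4.3.3) on the 6 QGP-1 libraries of replicates 3 and 1, with TMM scaling, the filterByExpr filter, plasmid as a block and Benjamini-Hochberg adjustment over all 14553 genes tested, at a threshold of 0.05. The SE of a log2 fold is its size over the square root of F. CPM were scaled by TMM over the 9 QGP-1 libraries, and log2 CPM used a prior count of 2. The members, gene lists and tests were chosen with earlier results of these data known. Genes were named by a rule: the 12 largest and 12 smallest log2 folds among characterised genes called with the same direction under all 3 plasmids and at least 2 CPM in the higher replicate, the 8 of smallest p in each direction with at least 50 CPM, up to 4 called members of each list by p, and MAML3. Other list members and neighbours were named after their values were seen. Some genes of the lists are not reported here by name. Shifts of the lines were compared as a contrast of contrasts in 1 fit of 18 libraries. Alternatives were DESeq2 1.42.0 as the test or for size factors, other filters, no block, other sets of libraries, a robust spread, counts divided by 5, MAML3 left out and each library left out. The main test was also tested on simulated data. Coordinates of genes on hg19 come from a GENCODE annotation on GRCh37, and promoters from RefSeq on GRCh38.p14. Figures were drawn with matplotlib 3.10.9.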

Additional observations from a re-analysis of the deposited data

Results flagged for a closer look

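The shift between replicates 3 and 1 differed between lines by the test of the difference itself, in 2035 genes for QGP-1 against BON-1 and in 2352 genes for QGP-1 against SK-N-SH (edgeR's quasi-likelihood test with Benjamini-Hochberg adjustment). Without BON-1 vector replicate 1, which stands apart from the other BON-1 libraries, the counts were 2310 and 4258. Of the 16 genes named for the smallest p in QGP-1, the 7 below had a difference called against both lines. The rest did not pass against at least 1 line. The 7 were chosen by that outcome, so their differences are descriptions. Given as the shift of QGP-1 minus that of BON-1 and then minus that of SK-N-SH, on the log2 scale, the values were as follows. The metallothionein MT2A differed by -4.85 and -3.93, and MT1E by -4.82 and -3.91. The mitotic factor FOXM1 differed by -2.32 and -2.22, the spindle protein TACC3 by -2.01 and -2.21, and the chromatin protein HMGB2 by -2.41 and -1.84. The vesicle protein SYTL5 differed by 3.22 and 2.21, and the ER co-chaperone DNAJB9 by 0.99 and 1.91. Without BON-1 vector replicate 1, the differences from BON-1 were -3.95 for MT2A, -4.21 for MT1E, -1.55 for FOXM1, -1.30 for TACC3, -1.71 for HMGB2, 2.99 for SYTL5 and 0.89 for DNAJB9.

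Vector replicate 2, a library outside the comparison of replicates 3 and 1, had a median position of 0.973 between the replicate 1 mean (0) and the replicate 3 mean (1) over the 5153 genes called, unlike FL and dEx1 replicate 2. Whether its replicate number in the labels is right could not be checked, so the meaning of its position rests on that label, and what sets it apart was not tested.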

How the results depend on the processing

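No paired analysis was possible because the groups compared are themselves the replicate numbers; plasmid served as the block instead. The count of 5153 genes (2483 higher, 2670 lower) became 3207 (1468 and 1739) with all 9 QGP-1 libraries in the fit and 2793 (1510 and 1283) with 18 libraries of 3 lines. Leaving out 1 library gave 2717 to 4833 genes, 1261 to 2186 of them higher and 1433 to 2678 lower. In the fit of 3 lines without BON-1 vector replicate 1, an alternative chosen after seeing the data, 4696 genes were called. DESeq2 called 5975, and no block 5207. The difference between QGP-1 and BON-1, 2035 genes, became 3976 with DESeq2 and 722 to 2495 with 1 library left out. The difference between QGP-1 and SK-N-SH, 2352 genes, became 3809 with only the 12 libraries of these lines, 4222 with DESeq2, and 866 to 1488 with 1 of those libraries left out; without BON-1 vector replicate 1 it was 4258. Among the lists, the fit of 18 libraries called 7 ER stress, 7 cholesterol synthesis, 6 granin, 5 heat shock, 7 respiratory chain and 4 ribosomal genes, and without BON-1 vector replicate 1 it called 12, 13, 10, 10, 12 and 12. The causes were not tested. Of 136 named genes, 91 kept their call in each of the 16 alternatives that tested them, 45 lost it in at least 1, and 0 reversed. An alternative whose filter left a gene out was not counted as a loss. The median positions of replicate 2 stayed within their quartile range under 3 other choices of genes. The 3 libraries a replicate and the unknown worth of a unit limit the precision, and values under 1 CPM are the least certain.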
